A study of Mus musculus with 12 samples.

Results

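The 10 genes described here encode RNA-binding proteins that regulate alternative splicing: Esrp1, Esrp2, Rbm47, Rbfox2, Srrm4, Mbnl1, Mbnl2, Mbnl3, Ptbp1 and Ptbp2. They were 10 of the 38924 genes counted, and they were chosen by name with their read counts, scaled to library size (CPM), over the sorted cell types already known, as epithelial regulators set against regulators of mesoderm. Their levels and fold changes are therefore a description and carry no test. RNA was sequenced from mouse embryo cells that had been sorted at E7.25, when the cardiac and blood lineages first form in the mesoderm. Every group came from the same Foxa2Cre:Rosa26-YFP line, in which Cre made under control of Foxa2 permanently switches on yellow fluorescent protein (YFP), so that YFP marks cells with a history of Foxa2 expression. The 4 cell types, with 3 libraries each, were hematopoietic mesoderm (KDR+), endoderm (EPCAM+) and 2 fractions of cardiac mesoderm: the YFP-positive fraction, labelled ventricular, and the YFP-negative fraction, labelled non-ventricular. The labels do not say whether the replicates of a type came from separate embryos, litters or pools, so the tests measure only the spread between these libraries.

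Alternative splicing lets 1 gene give several messenger RNAs, and which exons are kept is set by proteins that bind the transcript near each exon. ESRP1 and ESRP2 promote the epithelial pattern of exons and are known to be lost when epithelial cells become mesenchymal; RBM47 is a further RNA-binding protein of epithelia. RBFOX2, the MBNL proteins and PTBP1 act in many tissues and with opposite effects on some exons, while SRRM4 and PTBP2 are best known from neurons, where SRRM4 promotes the inclusion of microexons. Cells that ingress through the primitive streak at gastrulation leave an epithelium and become mesenchymal, so endoderm and mesoderm of this stage differ in the state that these proteins are known to follow.

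Gene counts totalled 4472800 to 7888631 per library, and 3 counts corresponded to 0.357 to 0.723 CPM on the TMM scale used for levels. Genes with at least 1 count numbered 18547 to 18618 in the endoderm libraries and 12484 to 14491 in the hematopoietic mesoderm libraries. Summed markers of each sorted type were highest in the libraries of that type. Hematopoietic mesoderm replicate 3 stood apart from the other 2: its 12 cardiac mesoderm markers summed to 1272 CPM against 480 and 510 CPM, its 12 hematopoietic markers to 1666 CPM against 2638 and 2968 CPM, and its 15 endoderm markers to 386 CPM against 135 and 94.7 CPM. Foxa2 was at 0 in all 3 YFP-negative libraries.

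Sequence around a transcript start is shown for the endoderm-high member Rbm47 and for Srrm4, which had no count in hematopoietic mesoderm. RefSeq promoter windows of 300 bases (build GRCm38.p6, 250 bases before to 50 after a transcript start) were found for 7 of the 10 members and gave 10 windows; Esrp1, Esrp2 and Rbfox2 had no entry. The windows were searched on both strands for the E-box CAGGTG, which reads CACCTG on the other strand and is a sequence that ZEB and SNAI repressors are known to bind. It occurred in 0 of the 10 windows and in 20.2% of all 32851 promoter windows of that length, which says only that these letters are not in these windows. The most upstream of 3 Rbm47 windows (chr5:66151905-66152204, minus strand) lies inside the annotated Rbm47 locus, which on that strand starts at 66173118. No window at that annotated start was searched. This Rbm47 window and the Srrm4 window (chr5:116591768-116592067, minus strand) are given 5′ to 3′ on the strand of the gene. They hold no capitals since nothing matched.
Rbm47: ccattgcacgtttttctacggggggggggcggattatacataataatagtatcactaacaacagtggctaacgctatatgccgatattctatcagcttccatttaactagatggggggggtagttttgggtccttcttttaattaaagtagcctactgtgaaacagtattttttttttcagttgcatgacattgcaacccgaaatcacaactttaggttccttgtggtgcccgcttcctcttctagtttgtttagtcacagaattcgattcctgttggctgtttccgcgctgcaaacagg
Srrm4: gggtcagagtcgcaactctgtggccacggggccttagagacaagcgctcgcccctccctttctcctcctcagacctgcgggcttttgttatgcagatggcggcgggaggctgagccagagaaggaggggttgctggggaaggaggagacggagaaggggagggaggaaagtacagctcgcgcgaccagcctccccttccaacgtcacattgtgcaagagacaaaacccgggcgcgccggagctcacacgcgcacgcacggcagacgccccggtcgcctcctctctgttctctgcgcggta

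The 2 ESRP genes and Rbm47 were the epithelial part of the set and were highest in endoderm. Esrp1 (chromosome 4, 11331933 to 11386783, minus strand; GRCm38) stood at 245, 257 and 264 CPM in endoderm replicates 1, 2 and 3. In the YFP-positive fraction it was at 1.66, 34.8 and 21.8 CPM, and in the YFP-negative fraction at 18.3, 1.68 and 10.6 CPM. Hematopoietic mesoderm had 0.72, 0 and 7.14 CPM. All endoderm libraries lay far above all mesoderm libraries and close to each other, while the mesoderm libraries of each type ranged from near the detection floor to as much as 34.8 CPM. The fitted log2 fold change of endoderm over the YFP-positive fraction was 3.71 ± 1.22 (SE), over the YFP-negative fraction 4.65 ± 1.28, and over hematopoietic mesoderm 6.60 ± 1.43. Since these are sorted bulk samples, fewer cells that make a transcript and less of it per cell cannot be told apart.

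Summed endoderm markers moved with the sorted type too, at 1819 to 2470 CPM in endoderm, 216 to 459 CPM in the YFP-positive fraction and 262 to 302 CPM in the YFP-negative fraction. Within the YFP-positive fraction the sum was 459, 216 and 338 CPM, of which Gata6, a marker that cardiac mesoderm also makes, was 245, 121 and 160 CPM. The sort marker Epcam had 11.2, 16.9 and 39.4 CPM in these libraries. Like Esrp1 it was lowest in replicate 1, but Epcam was highest in replicate 3 and Esrp1 in replicate 2. Neural ectoderm markers moved with endoderm as well: the 9 of them summed to 490 to 512 CPM there, of which Otx2 was 346 to 365 CPM, and to 68.9 to 282 CPM in the mesoderm libraries. The part of other cells in the levels of Esrp1, Esrp2 and Rbm47 was not tested.

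Esrp2 (chromosome 8, 106130319 to 106136974, minus strand) was the minor ESRP gene. Endoderm had 18.0, 32.1 and 23.8 CPM, the YFP-positive fraction 11.9, 0.91 and 2.04 CPM, and the YFP-negative fraction 3.35, 4.34 and 0 CPM. Hematopoietic mesoderm replicates 1 and 2 had no count, but replicate 3, the library that stands apart, had 20.6 CPM and so reached the endoderm range. The log2 fold change of endoderm was 2.32 ± 2.00 over the YFP-positive fraction and 3.25 ± 2.07 over the YFP-negative fraction, and the endoderm libraries lay above both. Over hematopoietic mesoderm it was 1.84 ± 1.96, with overlap through replicate 3 alone. Per kilobase of exon, Esrp1 made up 87.8% ± 2.92 (SD, n = 3) of the ESRP level in endoderm. In the mesoderm types this share spanned 8.81% to 100% over the libraries with any count.

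Rbm47 (chromosome 5, 66016549 to 66173118, minus strand) reached 327, 267 and 251 CPM in endoderm. The YFP-positive fraction had 1.25, 27.3 and 40.9 CPM, YFP-negative 1.51, 0.98 and 40.7 CPM, and hematopoietic mesoderm 0.24, 1.04 and 14.1 CPM. As with Esrp1, endoderm stood clear of every mesoderm library and the mesoderm libraries of 1 type were spread widely, from near the detection floor upwards. The log2 fold change of endoderm was 3.60 ± 1.48, 4.29 ± 1.53 and 5.78 ± 1.66 over the YFP-positive fraction, the YFP-negative fraction and hematopoietic mesoderm. In each mesoderm type Rbm47 was highest in replicate 3, whose file names carry 1 shared date; what step that date marks is not stated. Some epithelial genes, but not all, were highest in the same libraries. Replicate 3 of the YFP-positive fraction, the YFP-negative fraction and hematopoietic mesoderm had 59.2, 55.6 and 72.5 CPM of Cdh1, which encodes E-cadherin. For Epcam these libraries had 39.4, 43.0 and 68.9 CPM. Cldn6 and Grhl2 were likewise highest in replicate 3 of each mesoderm type. Esrp1 instead was highest in replicate 2 of the YFP-positive fraction, at 34.8 CPM, and replicate 1 of the YFP-negative fraction, at 18.3 CPM. The summed endoderm markers were highest in replicate 1 of both cardiac fractions, at 459 and 302 CPM, and in replicate 3 of hematopoietic mesoderm, at 386 CPM. Within each of the 3 dates, Esrp1, Esrp2 and Rbm47 were all higher in endoderm than in each of the mesoderm types.

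**Figure D1:**
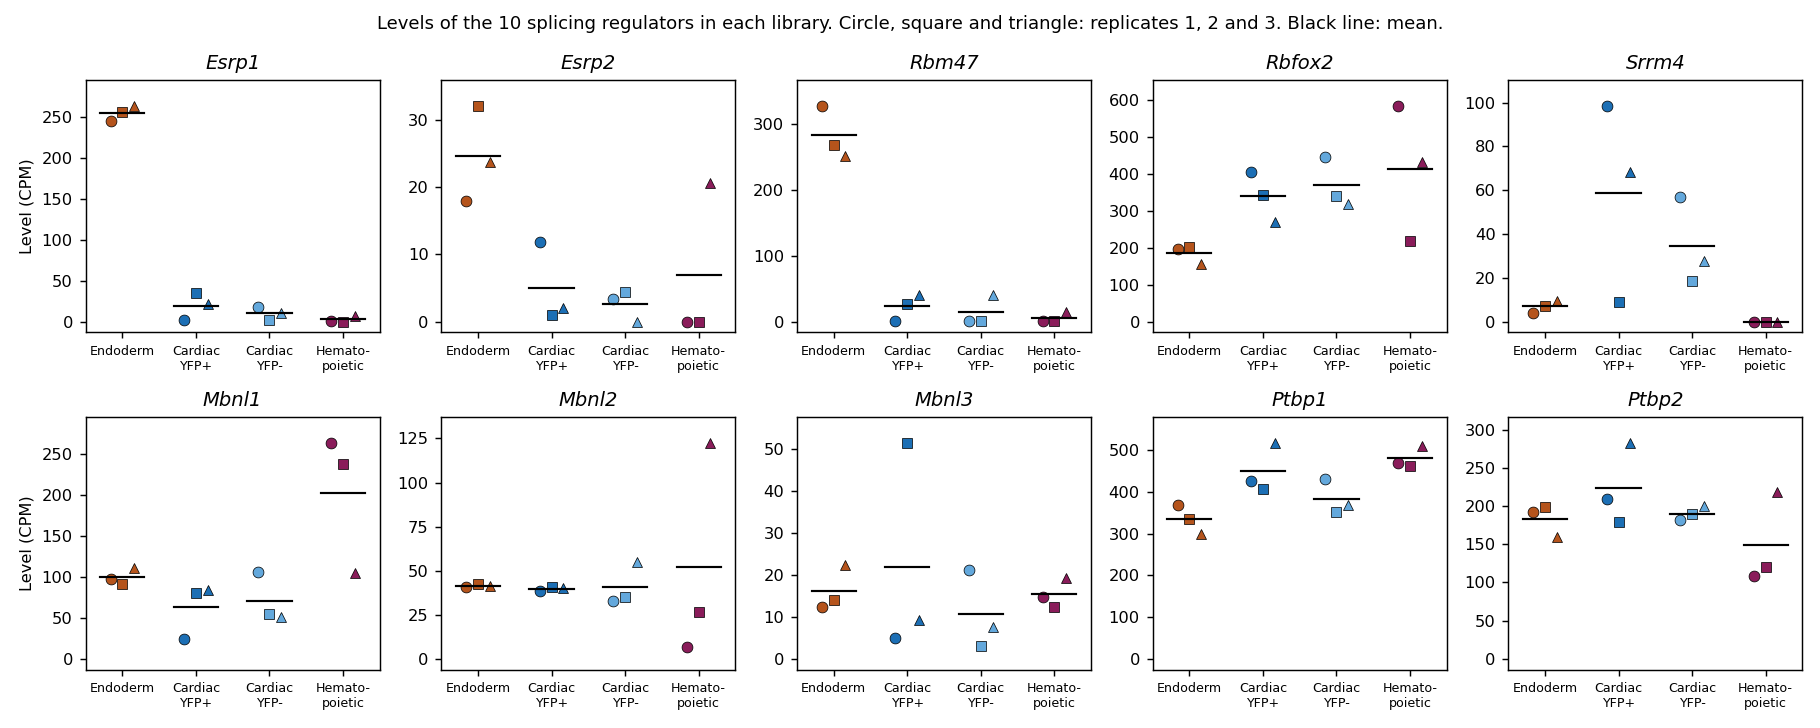
Level of each of the 10 regulators in TMM-scaled CPM (linear axis from 0) in the 12 libraries, grouped by sorted cell type; symbols are replicates 1 to 3 and black lines are means. Esrp1 and Rbm47 are at least 245 CPM in endoderm and at most 40.9 CPM elsewhere, Srrm4 has no count in hematopoietic mesoderm, and hematopoietic mesoderm replicate 3 departs from its replicates for Esrp2, Mbnl1, Mbnl2 and Ptbp2.

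Rbfox2 and Srrm4 had lower mean levels in endoderm than in cardiac mesoderm. Rbfox2 (chromosome 15, 77078990 to 77307004, minus strand), a regulator that binds the motif UGCAUG beside many muscle and mesenchymal exons, had 198, 203 and 156 CPM in endoderm. The YFP-positive fraction had 406, 343 and 271 CPM, YFP-negative 446, 340 and 319 CPM, and hematopoietic mesoderm 584, 218 and 432 CPM. No endoderm library reached any mesoderm library, with hematopoietic replicate 2 the nearest to the endoderm range. Endoderm was lower by log2 fold changes of -0.87 ± 0.29, -0.99 ± 0.29 and -1.15 ± 0.29 against the YFP-positive fraction, the YFP-negative fraction and hematopoietic mesoderm. The 3 mesoderm types overlapped.

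Srrm4 (chromosome 5, 116439275 to 116591817, minus strand) had its highest levels in cardiac mesoderm and varied widely between libraries there. The YFP-positive fraction had 98.7, 8.93 and 68.5 CPM and YFP-negative 56.8, 18.5 and 27.8 CPM. Endoderm had 4.14, 7.2 and 9.39 CPM, and none of the hematopoietic mesoderm libraries had a count. YFP-positive replicate 2 fell into the endoderm range, whereas all YFP-negative libraries were above endoderm and all endoderm libraries above hematopoietic mesoderm. Endoderm was lower by a log2 fold change of -3.08 ± 0.97 against the YFP-positive fraction and -2.31 ± 0.94 against the YFP-negative fraction, and it was lower within each of the 3 dates. Set against a floor of 3 counts per library, the YFP-positive fraction was at least 94.0-fold, YFP-negative at least 55.1-fold and endoderm at least 11.1-fold higher than hematopoietic mesoderm.

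Because Srrm4 is best known from neurons, 9 neural ectoderm markers were set beside it. They were highest in endoderm, where Srrm4 was low, and summed to 127 to 282 CPM in the YFP-positive fraction and 148 to 201 CPM in the YFP-negative fraction, and to 68.9 to 72.0 CPM in hematopoietic mesoderm. Sox2 and Pax6 were at 0 in all YFP-positive libraries, and Sox1, Sox3 and Hesx1 in all YFP-negative libraries. Within the YFP-positive fraction the sum was lowest in replicate 2, at 127 CPM, the library with the least Srrm4. The sum was highest in replicate 3, at 282 CPM, but Srrm4 in replicate 1. In the YFP-negative fraction too, both were lowest in replicate 2, while the sum was highest in replicate 3 and Srrm4 in replicate 1. The hematopoietic libraries without Srrm4 had no count for 6 of the 9 neural markers and also the lowest numbers of genes detected, apart from replicate 2; what these contributed was not tested.

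The muscleblind-like genes encode splicing regulators, of which MBNL1 and MBNL2 favour adult exon patterns as muscle matures. Mbnl1 (chromosome 3, 60472830 to 60629750, plus strand) had 263, 237 and 104 CPM in hematopoietic mesoderm and 96.9, 91.4 and 111 CPM in endoderm. The YFP-positive fraction had 23.7, 80.2 and 84.4 CPM and YFP-negative 106, 54.9 and 50.8 CPM. Hematopoietic replicates 1 and 2 were above every other library, and replicate 3 was within the endoderm range. The YFP-positive fraction was below hematopoietic mesoderm by a log2 fold change of -1.68 ± 0.50 and did not overlap with it; the difference for the YFP-negative fraction was -1.51 ± 0.49, with overlap through replicate 3.

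Mbnl2 (chromosome 14, 120275669 to 120431697, plus strand) was nearly level across endoderm, at 40.7, 42.2 and 41.5 CPM, and the YFP-positive fraction, at 38.7, 40.8 and 40.0 CPM. The YFP-negative fraction had 32.8, 35.2 and 55.0 CPM. Hematopoietic mesoderm, at 6.75, 26.8 and 122 CPM, spanned the whole range of the other types. With all libraries the log2 fold change of endoderm over hematopoietic mesoderm was -0.33 ± 0.76; without replicate 3 it was 1.30. For the 2 cardiac fractions over hematopoietic mesoderm the sign turned likewise, from -0.38 to 1.24 and from -0.34 to 1.29. Mbnl3 (chromosome X, 51117269 to 51206532, minus strand) had low levels in endoderm, at 12.2, 14.1 and 22.5 CPM, and in hematopoietic mesoderm, at 14.7, 12.5 and 19.3 CPM. Its YFP-positive libraries had 4.99, 51.4 and 9.25 CPM and its YFP-negative libraries 21.1, 3.08 and 7.68 CPM, so that the types overlapped throughout.

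Compared per kilobase of exon, the summed muscleblind level was 16.9 ± 0.98 CPM per kb (SD, n = 3) in hematopoietic mesoderm and 10.6 ± 1.13 in endoderm. In the YFP-positive fraction it was 9.18 ± 4.26 and in YFP-negative 8.41 ± 2.30 CPM per kb. The 3 hematopoietic sums, 16.3, 16.3 and 18.0 CPM per kb, replicate 3 included, were above those of all 9 libraries of the other types. Replicate 3 differed in make-up: Mbnl1 was 86.2% and 77.5% of the sum in hematopoietic replicates 1 and 2 and 31.0% in replicate 3, with Mbnl2 at 56.7% there. In endoderm Mbnl1 held 50.1% ± 1.64 of the sum.

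Ptbp1 and Ptbp2 encode polypyrimidine tract binding proteins. PTBP1 represses many exons outside the nervous system, and its fall with a rise of PTBP2 is a known step in making neurons. Ptbp1 (chromosome 10, 79854427 to 79864771, plus strand) had 368, 335 and 300 CPM in endoderm, 426, 407 and 517 CPM in the YFP-positive fraction and 431, 351 and 367 CPM in the YFP-negative fraction, and 468, 462 and 509 CPM in hematopoietic mesoderm. Endoderm was below the YFP-positive fraction by -0.43 ± 0.14 and below hematopoietic mesoderm by -0.52 ± 0.15 on the log2 scale without overlap, and it overlapped with the YFP-negative fraction. Ptbp2 (chromosome 3, 119718742 to 119784466, minus strand) had 192, 199 and 160 CPM in endoderm, 209, 179 and 282 CPM in the YFP-positive fraction and 182, 189 and 199 CPM in the YFP-negative fraction. In hematopoietic mesoderm it was at 108, 120 and 219 CPM, low in replicates 1 and 2 and within the range of the others in replicate 3.

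Ptbp1 exceeded Ptbp2 in every library. The ratio of their levels per kilobase of exon was 3.53 ± 0.25 (SD, n = 3) in endoderm, 3.95 ± 0.42 in the YFP-positive fraction and 3.91 ± 0.59 in the YFP-negative fraction, which overlapped. In hematopoietic mesoderm it was 8.35, 7.44 and 4.51; replicates 1 and 2 lay above all libraries of the other types, and replicate 3 lay within their range.

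**Figure D2:**
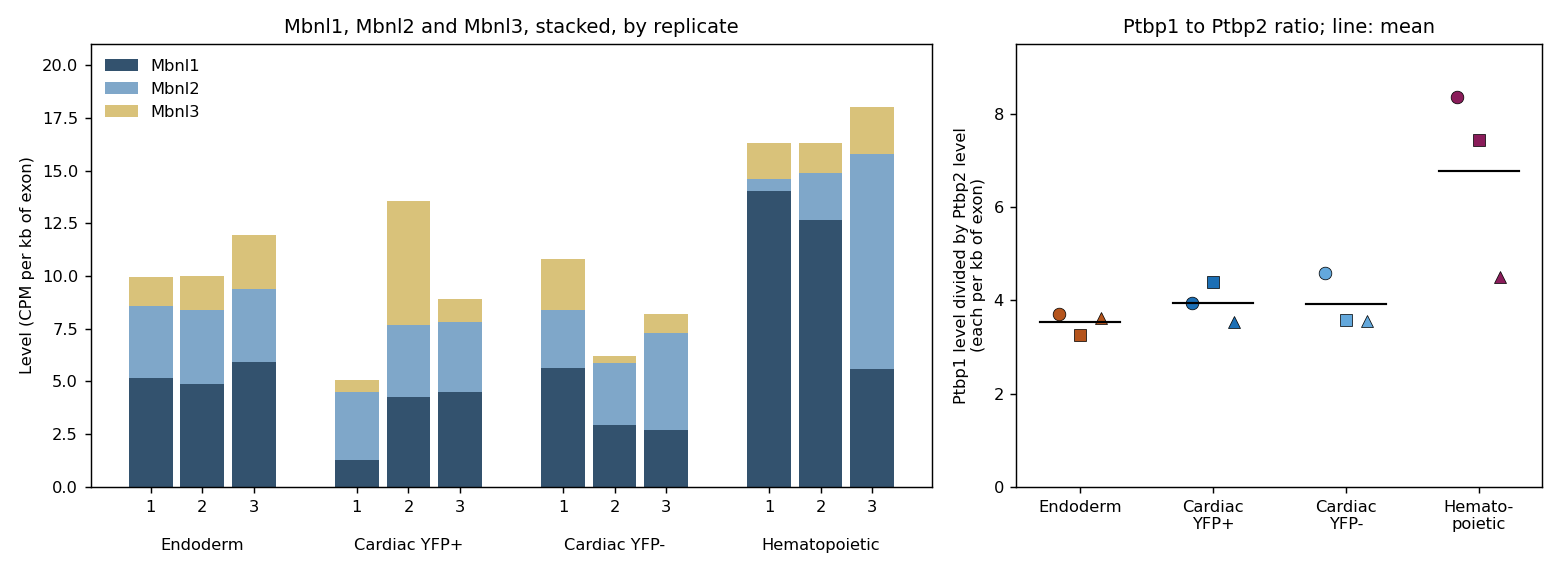
Left, stacked bars of Mbnl1, Mbnl2 and Mbnl3 in CPM per kb of exon for each library (axis from 0); right, the ratio of Ptbp1 to Ptbp2 per kb of exon in each library with the type mean as a line. The 3 hematopoietic bars are the tallest, at 16.3 to 18.0 CPM per kb, but replicate 3 holds mostly Mbnl2, and its Ptbp1 to Ptbp2 ratio of 4.51 is below the 8.35 and 7.44 of its replicates.

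The order of the members within a type, per kilobase of exon, was led by Ptbp1 in all 4 types, at 70.5 ± 7.19 CPM per kb in endoderm and 101 ± 5.46 in hematopoietic mesoderm. Esrp1 at 40.5 ± 1.54 and Rbm47 at 39.4 ± 5.58 CPM per kb came next in endoderm and were not separated from each other. Rbfox2 came next in each mesoderm type, at 41.7 ± 8.30 CPM per kb in the YFP-positive fraction, 45.3 ± 8.38 in the YFP-negative fraction and 50.6 ± 22.6 in hematopoietic mesoderm, followed by Ptbp2. Srrm4 ranked last in endoderm and hematopoietic mesoderm. By mean it ranked 4 of 10 in both cardiac fractions, without separation from the next genes: it spanned 1.03 to 11.4 CPM per kb in the YFP-positive fraction, where Mbnl1 spanned 1.27 to 4.51, and its mean in the YFP-negative fraction was 3.96 against 3.77 CPM per kb for Mbnl1. Between types, neighbours in the order of mean level were separated without overlap only for Esrp1 and Rbm47 (endoderm above the YFP-positive fraction), Rbfox2 (the YFP-positive fraction above endoderm) and Srrm4 (the YFP-negative fraction above endoderm, and endoderm above hematopoietic mesoderm).

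In the fit over all genes, the members' calls were as follows, and nothing is read from them, the levels having chosen the members. At an edgeR adjusted p under 0.05, endoderm against hematopoietic mesoderm called 3 of 10 members (Esrp1 and Srrm4 higher and Rbfox2 lower in endoderm), where 5.65% of the 14170 genes tested were called. Each cardiac fraction against hematopoietic mesoderm called 1 member, Srrm4, beside 1.79% of all genes with YFP and 0.593% without. DESeq2 called 2 members in each, beside 1509 and 1079 of the 14170 genes. Limma voom called 0 members, beside 18 and 95 genes, and the fit of only the 2 types 0 members, beside 13 and 10 genes. Between endoderm and hematopoietic mesoderm, leaving out single libraries kept the Srrm4 call in 6 of 6 fits. The Esrp1 call held in 2 (without hematopoietic replicate 2 or 3) and the Rbfox2 call in 1 (without hematopoietic replicate 2). Of 7 other fits, Esrp1 was called in 7 and Srrm4 in 6, not by limma voom. Rbfox2 was not called under RLE scaling, by limma voom or with only the 2 types fitted. DESeq2 called 5 members beside 1902 genes, and limma voom 4 beside 1225. The fit of only the 2 types called 3 beside 1258 of 12720 genes. Endoderm against the YFP-positive fraction called 0 members beside 1.54% of genes. At an unadjusted edgeR p under 0.05 were 5 members and 2241 of the 14170 genes. DESeq2 called 1 member beside 929 genes, and limma voom 2 beside 1130. The fit of only the 2 types called 3 members (Esrp1, Rbfox2 and Rbm47) beside 1063 of 12845 genes. Endoderm against the YFP-negative fraction called 0 members beside 1.31% of genes. At an unadjusted edgeR p under 0.05 were 4 members and 1462 of the 14170 genes. DESeq2 called 1 member beside 605 genes, and limma voom 5 beside 1812. The fit of only the 2 types called 4 members (Esrp1, Rbfox2, Rbm47 and Srrm4) beside 1360 of 13472 genes. The 2 cardiac fractions differed in 0 members and in 0.0% of genes by edgeR, and DESeq2 and limma voom called 0 members, beside 117 and 0 genes. At an unadjusted edgeR p under 0.05 were 0 members and 1062 of the 14170 genes. Fold changes of the members between these fractions ran from -0.17 ± 0.48 for Mbnl1 to 1.04 ± 1.01 for Mbnl3, and the libraries of the 2 fractions overlapped for all 10 genes.

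Genes whose log2 CPM ran most like a member over the 12 libraries were sought among 10364 genes; these correlations are descriptive, and the libraries of a type share their source. Esrp1 was most like St8sia3 (Pearson r = 0.95), Cacng4 (0.94) and Dusp6 (0.92), and Rbm47 was most like Grhl2 (0.96), Cacng4 (0.92) and Hdac11 (0.90). Esrp1 and Rbm47 had r = 0.91 with each other, whereas Esrp1 and Esrp2 had r = 0.63. For Srrm4 the 3 genes were Lefty2 (0.96), an inhibitor of Nodal signalling, Tnrc6c (0.95) and Cyp4f15 (0.95). Lefty2 had 93.5 ± 38.4 CPM in the YFP-positive fraction, 88.9 ± 40.7 in YFP-negative, 16.7 ± 7.77 in endoderm and 0.46 ± 0.24 in hematopoietic mesoderm (SD, n = 3). Mbnl3 had looser likenesses, to Marveld1 (0.84), Grhpr (0.83) and Dnajc7 (0.81).

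The wider splicing machinery was compared through 120 further genes in 5 lists, of which 116 passed the expression filter. The first held relatives of the members and further RBM genes such as Rbm24 and Rbm20. The others were other tissue-restricted regulators, SR proteins with TRA2, heterogeneous nuclear ribonucleoproteins (hnRNPs) with other broad regulators, and the core spliceosome. By edgeR, 2 of 116 differed between endoderm and the YFP-positive fraction, and 2 between endoderm and the YFP-negative fraction: Rbm24 and Rbms1, lower in endoderm both times, at 1.54% and 1.31% of all genes tested. Between endoderm and hematopoietic mesoderm 8 differed, all lower in endoderm, beside 5.65% of all genes. Each cardiac fraction differed from hematopoietic mesoderm in 1 gene, Rbm24, beside 1.79% of all genes with YFP and 0.593% without. The cardiac fractions differed from each other in 0 genes by edgeR, DESeq2 and limma voom. At an unadjusted edgeR p under 0.05 were 2 genes of the lists, beside 1062 of all 14170.

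Rbm24, a gene of the first list known to promote muscle and heart exons, was at 81.4, 150 and 192 CPM in the YFP-positive fraction. In the YFP-negative fraction it was at 136, 118 and 122 CPM. Endoderm had 16.7, 10.7 and 12.7 CPM and hematopoietic mesoderm 2.65, 20.6 and 3.99 CPM, so that both cardiac fractions stood clear of both other types. Against the YFP-positive fraction endoderm was lower by -3.40 ± 0.68 on the log2 scale (edgeR adjusted p = 0.0238), and against the YFP-negative by -3.22 ± 0.67 (edgeR adjusted p = 0.0316). Against hematopoietic mesoderm Rbm24 was higher by 3.94 ± 0.70 with YFP (edgeR adjusted p = 0.0154) and by 3.77 ± 0.69 without (edgeR adjusted p = 0.0340). These calls were close to the threshold: leaving out any 1 library of endoderm or of the YFP-negative fraction ended the call between those types, with adjusted p up to 0.181, and the call against the YFP-positive fraction held only without replicate 1 of that fraction. The fold itself stayed between -3.68 and -3.07 in these fits. Against hematopoietic mesoderm the call of the YFP-positive fraction was lost only without its replicate 3. That of the YFP-negative fraction was kept only without hematopoietic replicate 2 or 3. Neither call was made by limma voom or with only the 2 types fitted. With a block for replicate number, only the call of the YFP-positive fraction against hematopoietic mesoderm held. The other Rbm24 calls then had edgeR adjusted p of 0.0501 to 0.0612.

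Rbms1, which binds single-stranded nucleic acids, was at 211, 211 and 146 CPM in endoderm, 591, 521 and 572 CPM in the YFP-positive fraction, 554, 614 and 534 CPM in YFP-negative and 590, 421 and 626 CPM in hematopoietic mesoderm. Every endoderm library was below every other library. The log2 fold change was -1.57 ± 0.18 (edgeR adjusted p = 0.000649) against the YFP-positive fraction, -1.58 ± 0.18 (adjusted p = 0.000611) against the YFP-negative fraction and -1.53 ± 0.18 (adjusted p = 0.000643) against hematopoietic mesoderm. It was lower in endoderm in all 3 same-numbered pairs of each comparison, and the call held without any 1 library.

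Among the other genes of the first list was Rbm20, a regulator of titin exons in heart. It had 46.1 ± 31.5 CPM in the YFP-positive fraction and 38.4 ± 13.1 CPM in the YFP-negative fraction. Endoderm had 8.56 ± 3.45 and hematopoietic mesoderm 3.25 ± 3.52 CPM. None of these differences passed the test, the lowest edgeR adjusted p being 0.120. Rbfox1 had 45.2 ± 17.4 CPM in endoderm, the type in which Rbfox2 was lowest, and 1.89 to 10.5 CPM as means in the mesoderm types, without a call. Ptbp3 was at 293 to 474 CPM as type means and Srrm3, the closest relative of Srrm4, had counts in only 3 libraries, at most 3.45 CPM.

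The broad splicing lists had median fold changes below 0 between endoderm and hematopoietic mesoderm. All 15 SR and TRA2 genes had fold changes below 0, with a median of -0.51, and 2 were called. These were the splicing coactivators Srrm1 at -0.54 ± 0.14 (edgeR adjusted p = 0.0386) and Srrm2 at -0.44 ± 0.10 (edgeR adjusted p = 0.0247). With a block for replicate number Srrm1 was not called (edgeR adjusted p = 0.0634). Of the 40 hnRNPs and broad regulators 34 were below 0, with a median of -0.38, and 4 were called: Rbm25, Hnrnpm, Hnrnpu and Hnrnph1. The core spliceosome had 26 of 33 genes below 0, with a median of -0.33 and 0 called by edgeR. At an unadjusted edgeR p under 0.05 were 8 of these 33 genes, beside 3234 of all 14170. The median of all genes tested was 0.07, and 5.65% of them were called. That median depends on the fit: it was -0.04 at a mean of at least 5 CPM, 0.35 with no filter and 0.46 by limma voom.

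Rbm25, a spliceosome-associated regulator, was the hnRNP-list gene with the largest of the 4 called fold changes. It had 834.5 ± 53.2 CPM in endoderm and 1349 ± 354 CPM in hematopoietic mesoderm, which is -0.69 ± 0.16 on the log2 scale (edgeR adjusted p = 0.0280). For Hnrnpm the log2 fold change was -0.60 ± 0.15 (edgeR adjusted p = 0.0335), for Hnrnpu -0.50 ± 0.12 (adjusted p = 0.0325) and for Hnrnph1 -0.47 ± 0.13 (adjusted p = 0.0494). Celf2, a tissue-restricted regulator known from muscle and T cells, had 39.6, 33.7 and 56.3 CPM in endoderm and 190, 75.2 and 189 CPM in hematopoietic mesoderm, and differed by -1.81 ± 0.42 on the log2 scale (edgeR adjusted p = 0.0297). The count of 8 fell to 1 without any 1 endoderm library or hematopoietic replicate 1, was 4 without hematopoietic replicate 3 and was 20 without hematopoietic replicate 2. Of all genes, 800 were called in the main fit and 180 to 188 without 1 endoderm library. Without hematopoietic replicate 1, 2 or 3 these were 417, 976 and 654.

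Between endoderm and the YFP-positive fraction the same 3 lists had medians of -0.38, -0.30 and -0.26, where all genes tested had -0.007. That all-gene median was -0.07 at a mean of at least 5 CPM, 0.20 with no filter and 0.27 by limma voom. By edgeR 0 genes of the 3 lists were called, beside 1.54% of all genes. At an unadjusted edgeR p under 0.05 were 5 of 15, 14 of 40 and 6 of 33 genes, beside 2241 of all 14170. Against the YFP-negative fraction the medians were -0.15, -0.19 and -0.18, where all genes tested had -0.012. In the same other fits the all-gene median was -0.03, 0.09 and 0.08. Here too 0 list genes were called by edgeR, beside 1.31% of all genes. At an unadjusted edgeR p under 0.05 were 1, 2 and 1 genes of the lists, beside 1462 of all 14170. The same lists also shifted between mesoderm types. Of 15, 40 and 33 genes, 14, 30 and 21 were lower in the YFP-negative fraction than in hematopoietic mesoderm (medians -0.26, -0.20 and -0.09). In the YFP-positive against the YFP-negative fraction 13, 32 and 20 were higher (medians 0.20, 0.16 and 0.09). All genes tested had medians of 0.019 and 0.025. By edgeR 0 of these list genes were called, beside 0.593% and 0.0% of all genes. Between the YFP-positive fraction and hematopoietic mesoderm the list medians were -0.08, -0.03 and -0.06, where all genes tested had 0.026. The U5 component Prpf8 and the U2 component Sf3b1 were the most abundant core genes. Prpf8 had 834.5 ± 47.4 CPM in endoderm and 1084 ± 122 CPM in the YFP-positive fraction, and Sf3b1 had 594 ± 7.66 and 712 ± 62.7 CPM; neither passed the test.

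**Figure D3:**
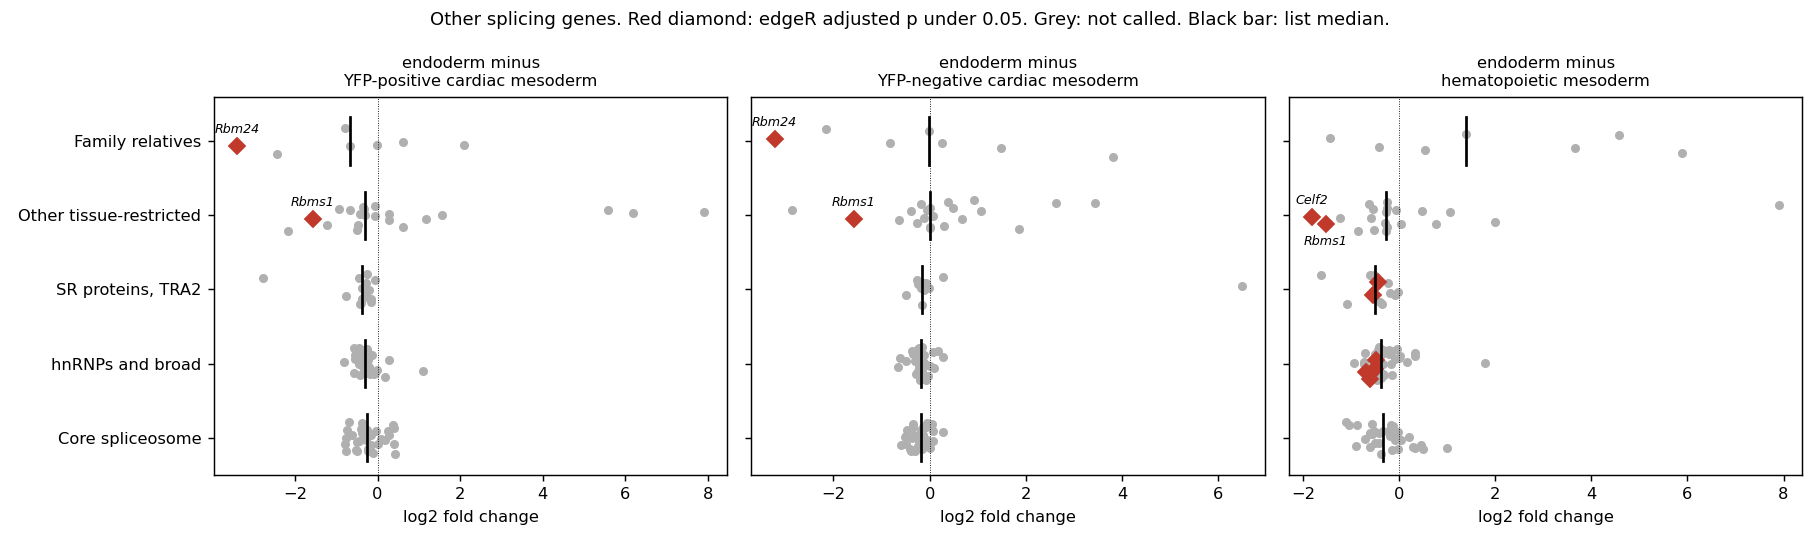
Log2 fold change of each tested gene of the 5 splicing lists in the 3 comparisons with endoderm; each point is a gene, red diamonds passed the edgeR test and black bars are list medians. Rbm24 and Rbms1 are the called genes in the cardiac comparisons, and the bars of the SR, hnRNP and core lists lie to the left of 0, at -0.51, -0.38 and -0.33 against hematopoietic mesoderm.

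Transcription factors that are known to set epithelial or mesenchymal states, and with them the ESRP genes, formed a list of 16, of which 13 were tested. Against endoderm, Zeb1 and Zeb2, repressors of epithelial genes, were higher in each mesoderm type. Zeb2 had 130, 165 and 114 CPM in endoderm, 625, 666 and 874 CPM in the YFP-positive fraction, 634, 748 and 663 CPM in YFP-negative, and 1460, 1010.1 and 787 CPM in hematopoietic mesoderm. Its log2 fold changes in endoderm were -2.40 ± 0.22 (edgeR adjusted p = 0.000161), -2.32 ± 0.22 (adjusted p = 0.000135) and -2.99 ± 0.23 (adjusted p = 2.16e-05) against the YFP-positive fraction, the YFP-negative fraction and hematopoietic mesoderm. Zeb1 had 13.5, 18.6 and 10.6 CPM in endoderm, and its lowest mesoderm library, YFP-positive replicate 2, had 58.7 CPM. The Zeb1 log2 fold changes were -3.35 ± 0.48 (edgeR adjusted p = 0.00290), -3.12 ± 0.47 (adjusted p = 0.00471) and -4.30 ± 0.50 (adjusted p = 0.000524). All 6 calls held without any 1 library, and each gene was lower in endoderm in all 3 same-numbered pairs.

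On the epithelial side, Grhl2, a grainyhead factor that maintains epithelia, had 77.3, 102 and 75.5 CPM in endoderm and 0.48, 0.87 and 4.62 CPM in hematopoietic mesoderm, which is 5.40 ± 1.16 on the log2 scale (edgeR adjusted p = 0.0221). In cardiac mesoderm it had 2.91, 16.9 and 23.7 CPM with YFP and 2.01, 5.18 and 13.0 CPM without, and those comparisons with endoderm did not pass. Grhl3, with 42.9 ± 21.8 CPM in endoderm and 1 count in all of hematopoietic mesoderm, passed as well (edgeR adjusted p = 0.0271). Ehf, an ETS factor of epithelia, had 16.2 ± 14.2 CPM in endoderm and no count in hematopoietic mesoderm. It was at least 26.0-fold higher against the 3-count floor (edgeR adjusted p = 0.0469). With a block for replicate number neither Grhl3 nor Ehf was called (edgeR adjusted p = 0.0510 and 0.0913). Leaving out single libraries raised the adjusted p of Grhl2 to as much as 0.0872, of Grhl3 to 0.105 and of Ehf to 0.159; the Grhl2 call held only without hematopoietic replicate 2 or 3, the Grhl3 call only without hematopoietic replicate 2, and the Ehf call in none of these 6 fits. Snai1, Klf5 and Klf4 did not pass against any mesoderm type and did not run one way between endoderm and mesoderm. Snai1, another zinc finger repressor of epithelial genes, had 3.02 to 3.63 CPM in endoderm and 47.9 to 137 CPM in the cardiac libraries, but 0, 0.17 and 46.8 CPM in hematopoietic mesoderm. Klf5, an epithelial factor of the KLF family, had 24.0, 34.6 and 33.4 CPM in endoderm and 164, 108 and 47.5 CPM in hematopoietic mesoderm, and its relative Klf4 had 5.82 ± 1.13 CPM in endoderm and 11.2 ± 2.73 and 18.9 ± 4.86 CPM (SD, n = 3) in the YFP-positive and the YFP-negative libraries.

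**Figure D4:**
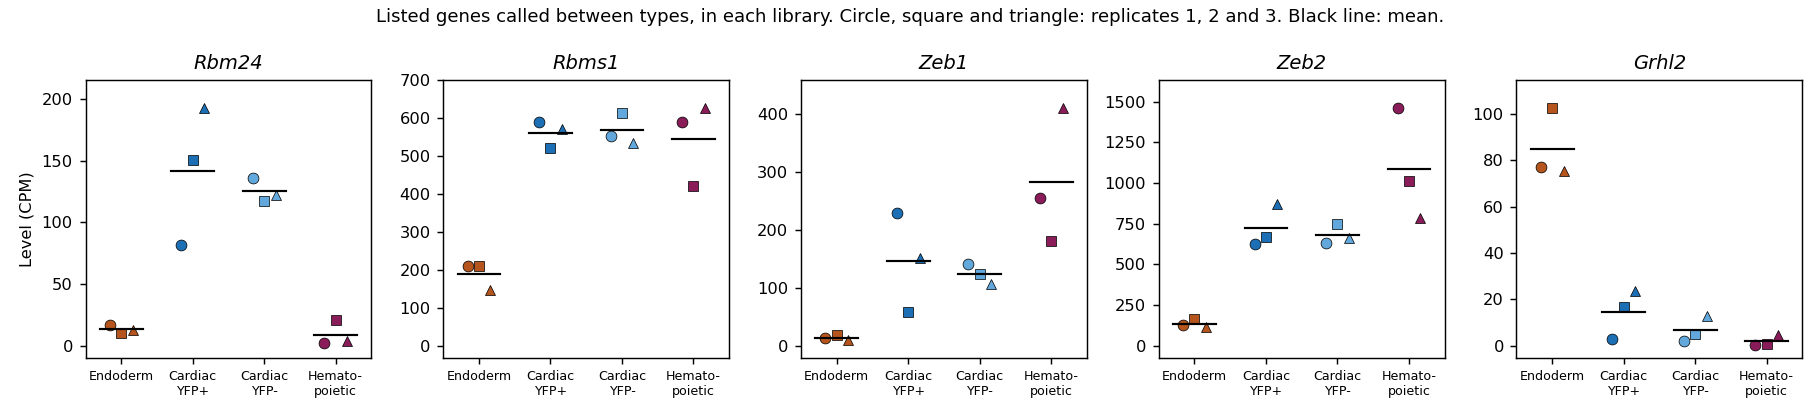
Level in CPM (linear axis from 0) of 5 listed genes that passed the edgeR test in at least 1 comparison, in each of the 12 libraries; black lines are type means. Rbm24 is at 81.4 CPM or more in both cardiac fractions and at 20.6 CPM or less in the other types, Rbms1, Zeb1 and Zeb2 are low in endoderm, and Grhl2, at 75.5 to 102 CPM in endoderm, has the opposite order.

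The readout of splicing itself is not in gene counts, which add up all isoforms of a gene. For 20 genes with exons known to be controlled by ESRP proteins, gene levels were compared all the same. Ralgps2, named for its guanine nucleotide exchange factor domain for RAL, was lower in endoderm, at 146, 161 and 170 CPM, than in the YFP-positive fraction, at 391, 346 and 352 CPM, by -1.19 ± 0.18 on the log2 scale (edgeR adjusted p = 0.00438). Hematopoietic mesoderm also exceeded endoderm (-0.89 ± 0.18, edgeR adjusted p = 0.0150), as did the cardiac libraries without YFP (-0.87 ± 0.18, edgeR adjusted p = 0.0279). Of these 3 calls, the first held without any 1 library; that against hematopoietic mesoderm was lost without any 1 endoderm library, and that against the YFP-negative fraction held only without its replicate 3. Relative to hematopoietic mesoderm, the kinase Slk was lower in YFP-positive cardiac libraries (-0.99 ± 0.22, edgeR adjusted p = 0.0426). Leaving out 1 library at a time, the Slk call held in 1 of 6 fits, that without hematopoietic replicate 3. Fgfr2, the best known ESRP target, did not pass in any comparison with endoderm, at 124 ± 7.98 CPM in endoderm and 136 to 153 CPM as means in the mesoderm types.

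Exons of 6 members overlap other annotated genes: Esrp1, Esrp2, Rbm47, Srrm4, Mbnl2 and Ptbp1. Since the strand setting of the counting is not stated, reads in those stretches cannot be assigned with certainty. The largest overlaps were those of Ptbp1, which shares 437 of its 4740 exon bases with Gm17134, 295 with E130317F20Rik and 251 with Plppr3, all on the opposite strand. Rbm47 shares 276 of 7163 with Gm43323 on the same strand and 112 with Gm26725 on the opposite strand. Esrp2 shares 219 of 4340 with Nfatc3 and 119 with 1810019D21Rik, Esrp1 127 of 6305 with Gm26663, Mbnl2 86 of 11993 with Gm26679 and Srrm4 68 of 8678 with Srrm4os, all on the opposite strand. The level of Ptbp1 per kilobase and its ratio to Ptbp2 carry this uncertainty.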

How the data were processed

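RNA-seq was analysed from 12 libraries of 4 sorted cell types. The deposited values were raw read counts per gene for 38924 versioned Ensembl mouse gene IDs; per the labels' protocols, RNA was purified with the Agilent Absolutely RNA nanoprep kit and amplified with NuGEN low-input kits. The submitters' processing notes name STAR 2.5.0a, HTSeq 0.6.0, Picard, DESeq2 and build mm10; annotation release and strand setting are not given in the sources used here. The 5 summary categories per file were left out: 18.3% to 21.5% of tallied reads were in genes. Groups and replicate numbers came from the titles.

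Counts were fitted with edgeR 4.0.16 in R 4.3.3: all 12 libraries, 1 coefficient per type, TMM scaling, the default filterByExpr filter (14170 genes kept, all 10 members among them), two-sided quasi-likelihood tests of the 6 pairs of types, and Benjamini-Hochberg adjustment over all genes tested at 0.05. Levels are TMM-scaled CPM; levels per kilobase use merged GENCODE M21 exons. Standard errors were derived from the fold change and the F statistic. The 3-count floors cover only counting error: reads amplified without molecular identifiers can repeat 1 molecule. Members, lists, tests and the naming rule were chosen with earlier results of these data known. The rule named all members; of the lists, in each pair of types, genes with an adjusted p under 0.05 (at most 6 in each direction by size), and in a list without one the 2 of highest CPM; and the 3 genes most like Esrp1, Rbm47, Srrm4 and Mbnl3, by Pearson correlation of log2 CPM. Rbm20, Rbfox1, Ptbp3, Srrm3, Snai1, Klf4, Klf5, Fgfr2, Gata6, Otx2, Epcam, Cdh1 and Cldn6 were named in addition, after their values were seen. Alternatives were RLE scaling, no filter, a mean of at least 5 CPM, a block for replicate number, a DESeq2 1.42.0 test, limma 3.58.1 voom with quality weights, a fit of the 2 types alone, and leaving out each library. On simulated counts for endoderm and YFP-positive cardiac mesoderm of 14170 genes, edgeR called 0%, 16%, 28% and 44% of 50 genes changed 2-, 4-, 8- and 16-fold and 3 of 13970 unchanged genes. A comparison of protein sequences between family members was not run. The values of 1 further listed gene that the rule names are not reported here.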

Additional observations from a re-analysis of the deposited data

How the results depend on the processing

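The number of splicing-list genes called depended on the test and on single libraries. For endoderm against YFP-positive cardiac mesoderm (2 by edgeR) it was 7 by DESeq2, 14 by limma voom and 10 with only the 2 types fitted. Of all genes, these fits called 929, 1130 and 1063, against 218 in the main fit. For endoderm against YFP-negative cardiac mesoderm (2) it was 11 by limma voom and 7 with only the 2 types fitted. These fits called 1812 and 1360 of all genes, against 185. For endoderm against hematopoietic mesoderm (8) it was 5 under RLE scaling, 19 by DESeq2, 15 by limma voom and 4 with only the 2 types fitted. All-gene counts there were 712, 1902, 1225 and 1258, against 800. The fits of 2 types tested 12845, 13472 and 12720 genes in this order, and the others 14170. For YFP-positive cardiac against hematopoietic mesoderm (1) it was 8 by DESeq2, 0 by limma voom and 0 with only the 2 types fitted. Of all genes, these fits called 1509, 18 and 13 (of 10773), against 253. For YFP-negative cardiac against hematopoietic mesoderm (1) it was 2 at a mean of at least 5 CPM, 6 by DESeq2 and 0 with only the 2 types fitted. All-gene counts were then 133 of 11040, 1079 of 14170 and 10 of 11440, against 84. Leaving out single libraries gave, in the same order, 1 to 2, 1, 1 to 20, 0 to 3 and 0 to 4 genes. Of all genes, these fits called 71 to 159, 69 to 100, 180 to 976, 106 to 426 and 16 to 247. The cause of these changes was not tested. The comparison of the cardiac fractions gave 0 under every alternative. Same-numbered libraries had low mean correlations of deviations, 0.0079 to 0.026 over the 6 comparisons. Yet 10 of 12 libraries were closest to their own number, and the file names of 1 number share a date. Whether the number marks a batch was not tested, and the main fit took no account of it. With the replicate block the counts were 2, 1, 8, 1, 0 and 0. Rbm24 was then called only for YFP-positive cardiac against hematopoietic mesoderm. Of all 14170 genes, the fit with the block called 178, 143, 545, 133, 31 and 0. The block ended 9 of the 29 calls of list genes, among them Rbm24 in the other 3 comparisons, Ralgps2 against YFP-negative cardiac mesoderm, Slk, Grhl3, Ehf and Srrm1. Of 376 alternative values of these 29 calls, 260 kept direction and call, 116 kept direction and lost the call, and 0 reversed. Of 779 alternative fold changes of the members, 37 changed sign, all of them uncalled differences: without hematopoietic replicate 3 Esrp2 turned from -0.48 to 7.94 for YFP-positive and from -1.41 to 7.0 for YFP-negative cardiac mesoderm against that type. Depth limits levels under the 3-count floor of 0.357 to 0.723 CPM (TMM scale).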
